A study of Solanum lycopersicum with 29 samples.

Results

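Among 35092 genes counted in tomato anthers, 150 were chosen because they were higher after long-term mild heat (LTMH) than at control temperature (CT) in each of 4 lines. Members were chosen by their measured LTMH minus CT differences in these same libraries. Read counts were turned into log2(CPM + 0.5), where CPM is the count scaled to the total of its library, and the 18246 genes with a mean of at least 1 CPM over 29 libraries were kept. For each line the CT mean was subtracted from the LTMH mean, and the 150 genes with the highest lowest of the 4 differences became members. These differences are therefore given as a description and support no statement about the members.

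All plants were Solanum lycopersicum, and the growth notes name the dwarf cultivar Micro-Tom. Never ripe is a mutant line, known for ethylene insensitivity. 35S::nahG carries a bacterial salicylate-degrading gene behind the constitutive 35S promoter and was introgressed into Micro-Tom. 35S::asCCD7 carries an antisense construct to CCD7, a gene of strigolactone synthesis, behind the same promoter, and WT is the wild type. LTMH plants spent 8 days with days of 34°C, nights of 28°C and 68% relative humidity. CT plants had days of 25°C, nights of 19°C and 50% relative humidity. Each library pooled 6 anthers holding polarized microspores. LTMH had 3 libraries each of Never ripe, 35S::nahG and WT and 4 of 35S::asCCD7, and CT had 4 of each line. Whether the anthers of a library came from 1 plant or several is not stated in the sources used here, so the p-values measure the spread between these pools. In bulk anthers, more cells of a type and more RNA per cell cannot be told apart.

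Heat unfolds proteins, and plant cells answer it with chaperones. HSP70 proteins refold clients together with HSP40 (DnaJ) partners, HSP90 proteins hold regulatory proteins in an active form, and small heat shock proteins keep unfolded proteins from clumping. Heat stress transcription factors (HSFs) switch many of these genes on. BiP proteins are the HSP70 members of the endoplasmic reticulum. In anthers, the tapetum is the cell layer that feeds the microspores and later dies, and its function is known to be sensitive to heat.

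Each library held between 32273189 and 42353956 counted reads, with a median of 34474482. Of the stamen identity genes, TAP3 (Solyc04g081000) reached 808 to 1404 CPM over the 29 libraries. TAG1 (Solyc02g071730) moved with temperature, with 757 to 1221 CPM in Never ripe LTMH against 644 to 824 CPM in Never ripe CT, 874 to 959 CPM in 35S::nahG LTMH against 385 to 400.3 CPM in 35S::nahG CT, 899 to 1066 CPM in 35S::asCCD7 LTMH against 527 to 860.2 CPM in 35S::asCCD7 CT, and 892 to 1157 CPM in WT LTMH against 527 to 652 CPM in WT CT. The summed level of 10 tapetum marker genes moved with temperature and line. It ranged over 61.8 to 442 CPM in Never ripe LTMH against 435 to 3236 CPM in Never ripe CT, over 155 to 273 CPM in 35S::nahG LTMH against 7337 to 10030 CPM in 35S::nahG CT, and over 158 to 506 CPM in WT LTMH against 703 to 3818 CPM in WT CT. In 35S::asCCD7 the sum ranged over 111 to 568 CPM in LTMH against 71.5 to 959.5 CPM in CT, and LTMH and CT overlapped in Never ripe and in 35S::asCCD7. Of the 10 markers, 1 (Solyc03g051960) was at 0 in every library, and 9, 8, 6 and 8 had a lower mean in LTMH than in CT in Never ripe, 35S::nahG, 35S::asCCD7 and WT. The summed level of 11 male germline and pollen markers was 196 to 421 CPM in Never ripe LTMH against 308 to 342 CPM in Never ripe CT, 259 to 279.9 CPM in 35S::nahG LTMH against 171 to 254 CPM in 35S::nahG CT, 228 to 332 CPM in 35S::asCCD7 LTMH against 261 to 375 CPM in 35S::asCCD7 CT, and 253 to 331 CPM in WT LTMH against 303 to 348 CPM in WT CT. None of these 11 was at 0 in every library, and 2, 1, 2 and 5 had a lower mean in LTMH than in CT in Never ripe, 35S::nahG, 35S::asCCD7 and WT. The library with the lowest tapetum sum of its group also had the highest TAG1 level in 7 of 8 groups and the lowest germline and pollen sum in 6 of 8. The part of these marker levels in the results below was not tested.

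**Figure D1:**
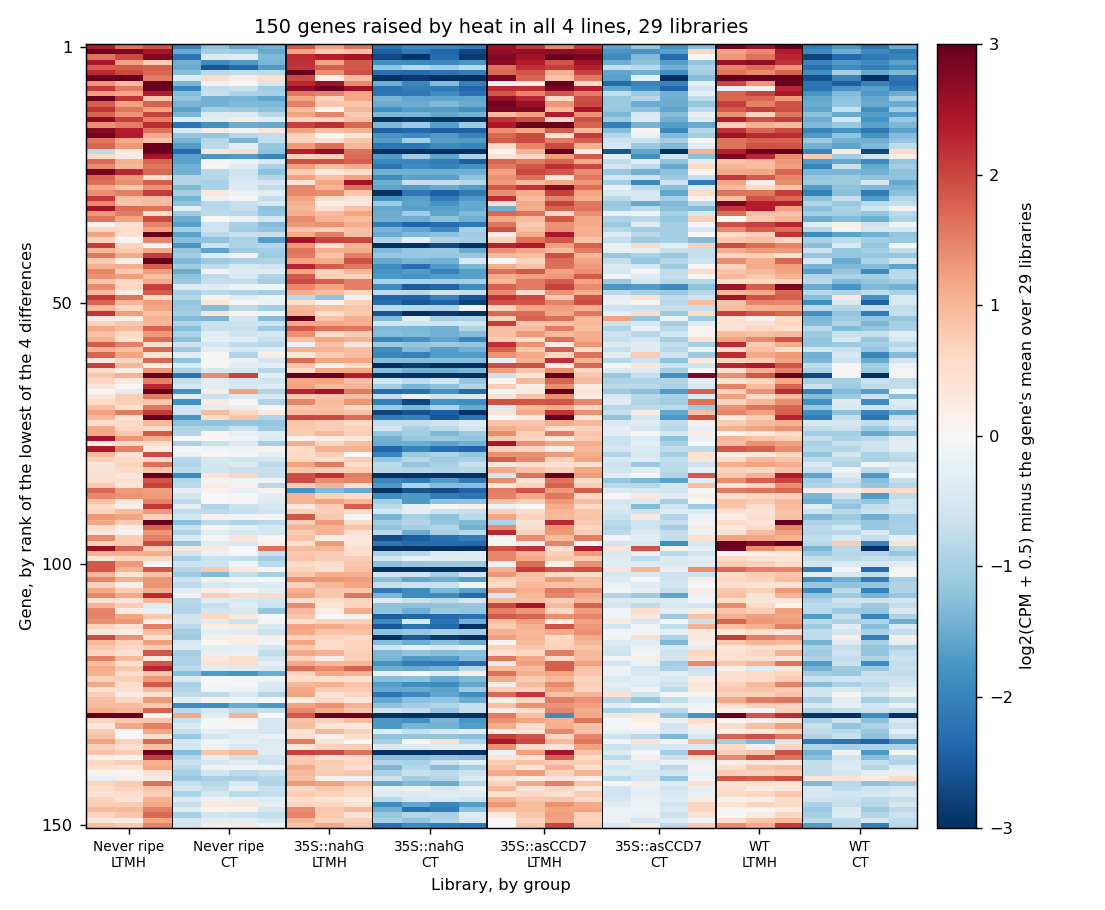
Level of the 150 genes (rows, by rank of the lowest of their 4 differences) in 29 libraries (columns, by group), as log2(CPM + 0.5) minus the gene's own mean over all libraries. LTMH columns are mostly above a gene's mean and CT columns mostly below it. The lowest of the 4 CT means is that of 35S::nahG for 111 members, which was not counted over the genes kept.

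The members were modest in level and took a small share of the reads. Their mean over all libraries ran between 1.00 and 547 CPM with a median of 5.85 CPM, and per gene length their median was 5.46 FPKM, against 11.5 FPKM over the genes kept. They received 0.628% ± 0.261 of the counted reads in Never ripe LTMH and 0.178% ± 0.0392 in Never ripe CT (SD, n = 3 and 4). The share was 0.558% ± 0.0290 in 35S::nahG LTMH and 0.0881% ± 0.00739 in 35S::nahG CT (SD, n = 3 and 4). It was 0.578% ± 0.137 in 35S::asCCD7 LTMH and 0.217% ± 0.0865 in 35S::asCCD7 CT (SD, n = 4 each), and 0.542% ± 0.106 in WT LTMH and 0.127% ± 0.0207 in WT CT (SD, n = 3 and 4). The 13 LTMH libraries lay between 0.444% and 0.926% and the 16 CT libraries between 0.0790% and 0.341%, so no CT library reached an LTMH one.

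Line means of the members lay further apart in CT than in LTMH, as they did over the genes kept. The median log2 difference of the members was 1.59 in Never ripe, 2.44 in 35S::nahG, 1.54 in 35S::asCCD7 and 2.03 in WT, where the genes kept had medians of 0.17, 0.09, 0.10 and 0.07. In LTMH the members' median level was alike, at 11.1 CPM in Never ripe, 9.60 CPM in 35S::nahG, 11.2 CPM in 35S::asCCD7 and 10.8 CPM in WT. In CT it was 2.63 CPM in Never ripe, 0.941 CPM in 35S::nahG, 3.08 CPM in 35S::asCCD7 and 2.01 CPM in WT. A member's 4 line means spanned a median of 0.78 on the log2 scale in LTMH and 1.08 in CT, against 0.33 in LTMH and 0.40 in CT over the genes kept. The span was wider in CT for 98 of the 150 members, a share near the 63.2% seen over the genes kept. The lowest CT mean fell in 35S::nahG for 111 members, and the largest of the 4 differences lay in 35S::nahG for 87. Neither was counted over the genes kept, and both use values that chose the members, so nothing is read from them.

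All members were higher in LTMH by at least 0.94 on the log2 scale in the line where their difference was smallest, as the rule demands. The lowest of the 4 differences had a median of 1.27 and a maximum of 3.51, and 130 members were at least 2-fold, 24 at least 4-fold and 4 at least 8-fold higher in every line on the log2(CPM + 0.5) scale. That lowest difference was found in Never ripe for 54 members, in 35S::asCCD7 for 54, in 35S::nahG for 21 and in WT for 21. Every LTMH library lay above every CT library for 139 members in Never ripe, 149 in 35S::nahG, 120 in 35S::asCCD7 and 150 in WT, where 37.8%, 36.5%, 18.6% and 29.2% of the genes kept did so. In all 4 lines at once 117 members and 5.86% of the genes kept were free of overlap, and nothing is read from these counts because the rule used this contrast. The last members inside the limit were Solyc03g080060, Solyc07g048050 and Solyc12g055730, with lowest differences of 0.95, 0.95 and 0.94. The first genes outside were Solyc06g009770, Solyc05g054850 and the pollen gene ANN5 (Solyc04g008270), at 0.94, 0.93 and 0.93.

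**Figure D2:**
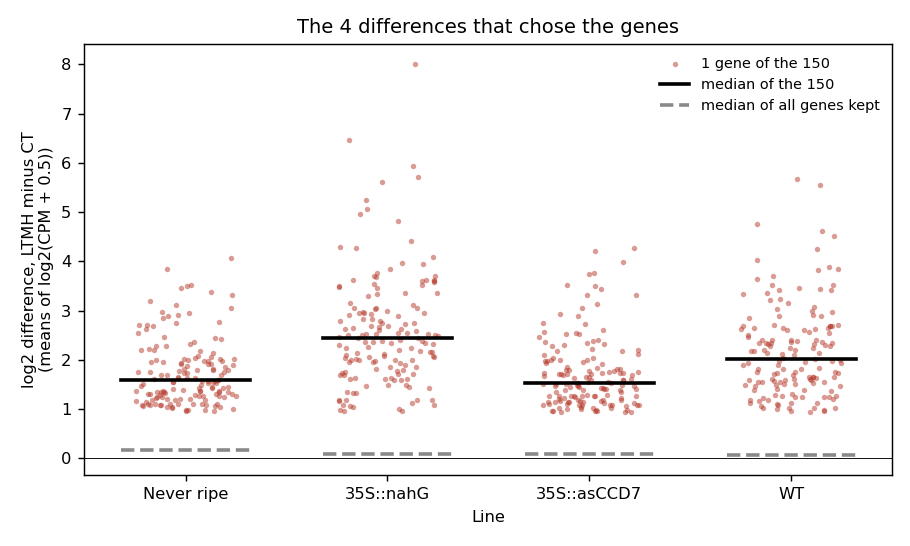
Each point is 1 of the 150 genes, placed by its LTMH mean minus its CT mean of log2(CPM + 0.5) in each line. Solid bars mark the members' medians of 1.59, 2.44, 1.54 and 2.03, and dashed bars the medians of all 18246 genes kept.

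Of the study's single lists used here, that of heat shock response (HSR) genes held the most members. They were 6 of the 169 HSR genes that passed the level limit, where the share over all genes kept was 150 of 18246. No test was run on this share. The 6 were chaperones, with 3 of 18 HSP70 genes at that level, 1 of 6 HSP90 genes, 1 of 11 small heat shock genes and 1 of 89 HSP40 genes. None of the 19 HSFs, 18 HSP60 genes or 5 HSP100 genes was a member. BIP3 (Solyc01g099660), an HSP70 of the endoplasmic reticulum, had the highest lowest difference of the 6 and stood at rank 4 among all members. BIP3 had in LTMH 125, 54.1 and 38.5 CPM in Never ripe, 107, 54.0 and 83.1 CPM in 35S::nahG, 152, 120.1, 84.9 and 137 CPM in 35S::asCCD7, and 142, 147.7 and 105 CPM in WT. The CT values of BIP3 were 8.17, 5.83, 6.74 and 8.51 CPM in Never ripe, 6.01, 5.88, 5.64 and 6.46 CPM in 35S::nahG, 7.96, 9.51, 6.97 and 9.96 CPM in 35S::asCCD7, and 5.56, 6.72, 5.80 and 7.27 CPM in WT. The CT values of BIP3 lay close together in all lines, and its LTMH values varied more, down to 38.5 CPM in Never ripe replicate 4. Its log2 difference was 3.06 in Never ripe, 3.60 in 35S::nahG, 3.75 in 35S::asCCD7 and 4.26 in WT.

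Hsp90-3 (Solyc06g036290) was the most abundant of the 6 at 42.2 FPKM over all libraries, against 12.9 FPKM for BIP3 and 11.9 FPKM for Hsp70-1. Hsp90-3 had in LTMH 356, 298 and 389 CPM in Never ripe, 152, 252 and 651 CPM in 35S::nahG, 274, 221, 249 and 279 CPM in 35S::asCCD7, and 256, 127 and 295 CPM in WT. At control temperature Hsp90-3 had 60.9, 57.2, 81.1 and 79.3 CPM in Never ripe, 40.5, 69.2, 68.4 and 61.8 CPM in 35S::nahG, 55.1, 29.03, 72.8 and 25.7 CPM in 35S::asCCD7, and 52.2, 53.1, 78.0 and 39.1 CPM in WT. Its LTMH and CT libraries did not overlap in any line, and 1 35S::nahG LTMH library was far above the other 2.

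Hsp70-5 (Solyc04g011440) and Hsp70-1 (Solyc06g076020), both of the HSP70 family, were less even between libraries. Hsp70-5 had in LTMH 10.8, 8.36 and 41.7 CPM in Never ripe, 11.6, 12.3 and 24.0 CPM in 35S::nahG, 9.82, 11.2, 17.6 and 26.6 CPM in 35S::asCCD7, and 53.1, 35.9 and 19.4 CPM in WT. For Hsp70-5, the CT libraries held 1.94, 1.77, 1.82 and 1.45 CPM in Never ripe, 1.86, 3.10, 2.03 and 3.39 CPM in 35S::nahG, 5.67, 1.60, 4.46 and 2.64 CPM in 35S::asCCD7, and 12.5, 3.22, 4.41 and 8.20 CPM in WT. The group mean of Hsp70-5 was highest in WT at both temperatures, and Never ripe LTMH replicate 4 was far above the other Never ripe LTMH libraries. Hsp70-1 had 35.5, 26.9 and 104 CPM in Never ripe LTMH against 19.5, 12.3, 14.6 and 16.4 CPM in Never ripe CT, and the LTMH library at 104 CPM, replicate 4, was the one with the lowest tapetum sum of its group.

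Hsp16.1-Po (Solyc04g014480), a small heat shock protein, was the most uniform of the chaperones and had 1 of the 3 narrowest spreads of the 4 differences among all members. Its log2 difference was 1.20 in Never ripe, 1.16 in 35S::nahG, 1.26 in 35S::asCCD7 and 1.11 in WT. Hsp16.1-Po had in LTMH 14.5, 13.8 and 21.8 CPM in Never ripe, 15.3, 15.6 and 16.4 CPM in 35S::nahG, 21.0, 20.7, 17.6 and 21.4 CPM in 35S::asCCD7, and 15.9, 13.3 and 14.0 CPM in WT. In CT Hsp16.1-Po had 5.63, 7.77, 7.47 and 6.69 CPM in Never ripe, 7.87, 6.40, 5.81 and 7.14 CPM in 35S::nahG, 7.63, 7.57, 7.59 and 9.87 CPM in 35S::asCCD7, and 5.22, 6.63, 6.96 and 6.84 CPM in WT. The LTMH level was thus above the CT level by a like amount in each line. DnaJ-C (Solyc04g081530), an HSP40 gene, differed by line as well as by temperature. DnaJ-C had in LTMH 11.6, 7.94 and 16.3 CPM in Never ripe, 14.5, 6.12 and 4.68 CPM in 35S::nahG, 27.6, 19.7, 9.69 and 15.1 CPM in 35S::asCCD7, and 2.004, 1.51 and 3.30 CPM in WT. The CT values of DnaJ-C were 3.06, 4.23, 3.80 and 3.27 CPM in Never ripe, 2.08, 4.81, 6.40 and 2.27 CPM in 35S::nahG, 4.25, 6.51, 5.14 and 9.59 CPM in 35S::asCCD7, and 0.668, 0.621, 0.464 and 0.939 CPM in WT. WT held the lowest DnaJ-C levels, and every library of the other lines in CT lay above every WT CT library.

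**Figure D3:**
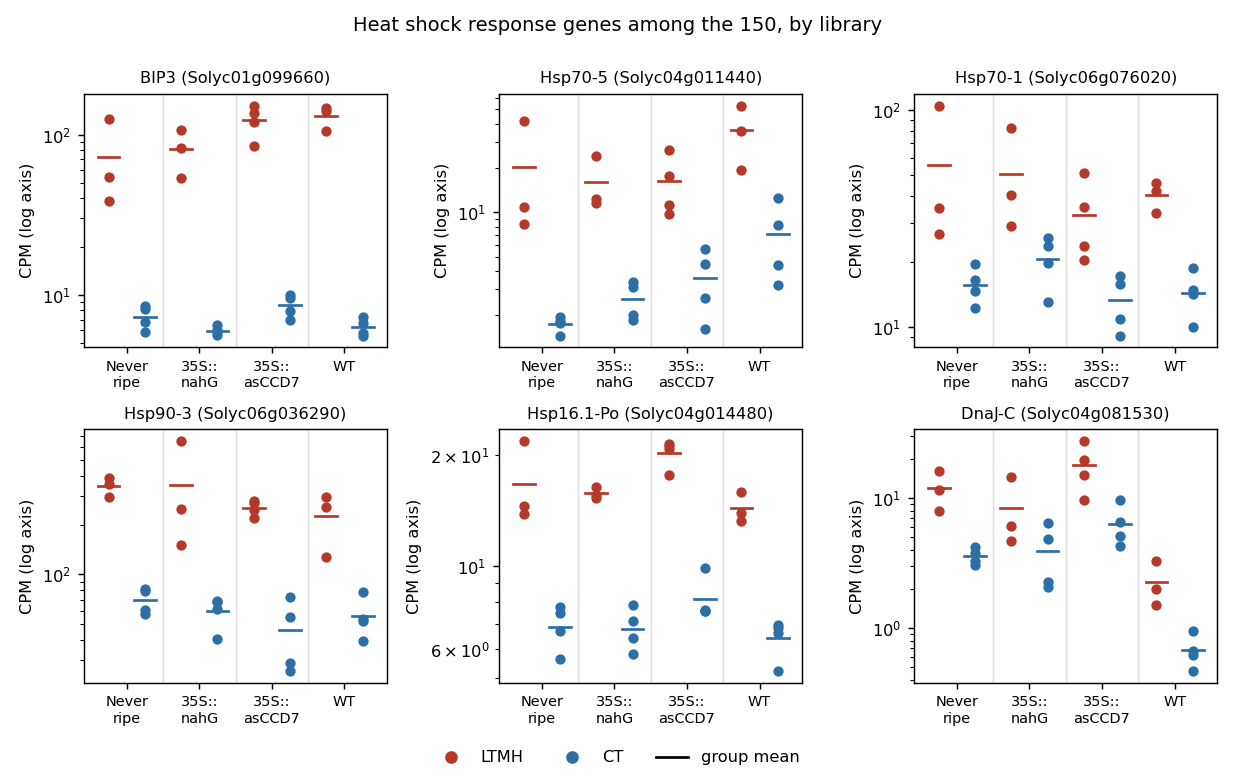
CPM (log axis) of the 6 heat shock response genes among the 150, 1 point per library, LTMH left of CT in each line, bars at group means. BIP3 shows the widest gap, with LTMH values of 38.5 to 152 CPM and CT values of 5.56 to 9.96 CPM, and DnaJ-C is lowest in WT.

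Most of the HSR list did not move in step with the members. Leaving the 6 members out, edgeR's quasi-likelihood test of LTMH against CT called 19 of 174 tested HSR genes higher and 2 lower in Never ripe, 30 higher and 12 lower of 169 in 35S::nahG, 15 higher and 3 lower of 174 in 35S::asCCD7, and 19 higher and 8 lower of 173 in WT. A call needs a Benjamini-Hochberg adjusted p under 0.05 over all genes tested and a fold of at least 1.5. Over all genes tested the shares called higher were 4.67% in Never ripe, 14.6% in 35S::nahG, 4.84% in 35S::asCCD7 and 9.05% in WT, and the shares called lower were 4.32%, 13.3%, 3.08% and 8.83%. Median log2 fold changes of these genes were 0.07, 0.06, 0.07 and 0.11 in the same order of lines. The list was built by the study.

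Again without the members, 3 of 169 HSR genes tested in all 4 lines were called higher in each (1.78%), where 0.702% of all 19387 genes tested in 4 lines were. They were the small heat shock gene Hsp17.6-CII (Solyc08g062450), another gene named DnaJ-C (Solyc02g014860) and HsfA6b (Solyc06g053960), whose level stayed under the limit for membership. HsfA6b was named after its values were seen. Hsp17.6-CII averaged 1.84 CPM in Never ripe LTMH against 0.405 CPM in Never ripe CT, and 1.92 CPM in WT LTMH against 0.842 CPM in WT CT. Its call was lost in Never ripe when any 1 CT library was left out, in WT without WT CT replicate 1 or 3 or any 1 LTMH library, and in both with a replicate block. Solyc02g014860 averaged 21.2 CPM in 35S::nahG LTMH against 4.79 CPM in 35S::nahG CT, a log2 fold change of 2.06 (SE 0.29, adjusted p = 0.000305, edgeR). In Never ripe its call was lost without Never ripe CT replicate 1, without Never ripe LTMH replicate 4 and in the fit of all 8 groups. Hsp70-6 (Solyc11g066100), whose lowest difference was 0.77, was called higher in Never ripe, 35S::nahG and WT, while 35S::asCCD7 had a log2 fold change of 0.69 (SE 0.21, adjusted p = 0.0588, edgeR). Its call was lost in Never ripe with a replicate block and without Never ripe CT replicate 3 or 4, and in 35S::nahG without 35S::nahG CT replicate 1 or 35S::nahG LTMH replicate 4.

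Apart from HsfA6b, none of the HSFs was called higher in all 4 lines. HsfA1a (Solyc08g005170), regarded as a master regulator in tomato, was not called in any line, with log2 fold changes of 0.07 in Never ripe, -0.03 in 35S::nahG, 0.08 in 35S::asCCD7 and 0.13 in WT. HsfA2 (Solyc08g062960), which sustains the response in tomato, was called higher in 35S::asCCD7 (log2 fold change 0.80, SE 0.12, adjusted p = 0.00646, edgeR). It averaged 36.3 ± 6.01 CPM in 35S::asCCD7 LTMH and 19.4 ± 2.72 CPM in 35S::asCCD7 CT (SD, n = 4 each), against 22.6 ± 1.27 CPM in WT LTMH and 24.9 ± 0.440 CPM in WT CT (SD, n = 3 and 4). Whether the lines differ in that change was not tested. HsfB1 (Solyc02g090820) was called higher in Never ripe (log2 fold change 0.60), 35S::nahG (1.06) and WT (1.16), and had 0.45 in 35S::asCCD7 (adjusted p = 0.0776, edgeR). Its Never ripe call was lost with a replicate block and without Never ripe CT replicate 2.

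HsfB2a (Solyc03g026020) was called higher in Never ripe (log2 fold change 0.63) and 35S::nahG (0.59), and HsfB2b (Solyc08g080540) in 35S::nahG (1.63). HsfA3 (Solyc09g009100) passed the adjusted p in all 4 lines but missed the fold limit, with log2 fold changes of 0.30 in Never ripe, 0.45 in 35S::nahG, 0.29 in 35S::asCCD7 and 0.30 in WT. HsfA7 (Solyc09g065660) was not called in any line. ClpB1 (Solyc03g115230), a disaggregase of the HSP100 family, was called higher in 35S::nahG (log2 fold change 0.59, SE 0.05, adjusted p = 1.45e-05, edgeR), and had 0.42 in Never ripe, -0.07 in 35S::asCCD7 and 0.39 in WT. Both genes lie near the fold limit in 35S::nahG, and under 6 settings each the call was not made (log2 fold changes of 0.54 to 0.65 for HsfB2a and 0.56 to 0.61 for ClpB1 over all settings). The single libraries among these settings were CT replicates 1 and 4 and LTMH replicates 2 and 3 for HsfB2a, and CT replicates 1, 2 and 3 and LTMH replicate 4 for ClpB1. HsfB2a also lost its Never ripe call without Never ripe LTMH replicate 4. At the other end, another DnaJ-C gene (Solyc02g062160) averaged 3.57 CPM in 35S::nahG LTMH against 393 CPM in 35S::nahG CT, and 3.97 CPM in WT LTMH against 116 CPM in WT CT. In 35S::asCCD7 Solyc02g062160 was not called in any setting (log2 fold changes of -1.11 to 0.561, adjusted p of 0.347 to 0.911, edgeR and DESeq2). Its lower calls in Never ripe and WT were each lost in 1 setting (adjusted p up to 0.0639 and 0.114, edgeR and DESeq2). HsfB3a (Solyc04g016000) was called lower in 35S::nahG (log2 fold change -1.55), and the DnaJ-C gene Solyc03g019640 was called lower in all 4 lines at -0.76 in Never ripe, -1.55 in 35S::nahG, -1.75 in 35S::asCCD7 and -1.80 in WT. For Solyc03g019640 the call was lost under 7 settings in Never ripe (adjusted p up to 0.118, edgeR) and 8 in 35S::asCCD7 (up to 0.103), and held in 35S::nahG and WT. Leaving out CT replicate 1, 3 or 4 or LTMH replicate 1 or 4 was enough in Never ripe, and CT replicate 1, 2 or 3 or any 1 LTMH library in 35S::asCCD7.

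Of the 150 members, 37 had a name or description in the study's tables, the 6 chaperones included, and 113 had none. These tables favour heat, pollen, sugar and hormone genes, so the named members do not sample the 150 evenly. Of the 12 members with the highest lowest difference, 4 were named. Solyc04g055030, annotated as the iron-sulfur subunit of mitochondrial succinate dehydrogenase, which feeds electrons into the respiratory chain, held rank 1 (chr4:53486583-53488417, minus strand, build SL3.0). Solyc04g055030 had in LTMH 11.1, 6.45 and 7.80 CPM in Never ripe, 7.61, 4.67 and 6.38 CPM in 35S::nahG, 12.5, 9.25, 5.61 and 9.17 CPM in 35S::asCCD7, and 15.7, 12.7 and 21.2 CPM in WT. At control temperature Solyc04g055030 had 0.0578, 0.472, 0.272 and 0.337 CPM in Never ripe, 0, 0.0869, 0.0881 and 0.0295 CPM in 35S::nahG, 0.241, 0.516, 0.148 and 0.402 CPM in 35S::asCCD7, and 0.0304, 0.169, 0 and 0.303 CPM in WT. It was close to undetected in CT in every line and reached its highest levels in WT LTMH.

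SlSWEET11a (Solyc03g097870), a member of the SWEET family of sugar transporters, held rank 6. SlSWEET11a had in LTMH 13.8, 11.2 and 9.47 CPM in Never ripe, 27.9, 7.25 and 10.9 CPM in 35S::nahG, 9.15, 10.6, 5.73 and 11.6 CPM in 35S::asCCD7, and 8.62, 7.40 and 9.52 CPM in WT. For SlSWEET11a, the CT libraries held 0.722, 1.20, 1.25 and 1.22 CPM in Never ripe, 0.124, 0.0869, 0.147 and 0.206 CPM in 35S::nahG, 0.513, 0.602, 0.325 and 0.947 CPM in 35S::asCCD7, and 0.334, 0.988, 0.522 and 0.666 CPM in WT. 35S::nahG had both the lowest CT levels of SlSWEET11a and its highest LTMH library. It was the only member among 54 carbohydrate transport genes at that level.

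Solyc02g076910, annotated as a senescence-specific cysteine protease of the SAG39 type and listed with auxin response, held rank 7. Solyc02g076910 had in LTMH 128, 45.9 and 16.5 CPM in Never ripe, 22.2, 6.09 and 10.7 CPM in 35S::nahG, 40.9, 18.9, 9.93 and 16.8 CPM in 35S::asCCD7, and 46.4, 49.3 and 52.4 CPM in WT. In CT Solyc02g076910 had 3.87, 8.17, 6.33 and 7.94 CPM in Never ripe, 0, 0.290, 0.147 and 0.0590 CPM in 35S::nahG, 1.39, 4.33, 0.177 and 1.89 CPM in 35S::asCCD7, and 0.425, 0.960, 0.0290 and 0.757 CPM in WT. Its LTMH level in Never ripe spread widely, with replicate 4 lowest, and Never ripe had the highest CT mean of this gene. The log2 difference was 2.77 in Never ripe, 4.27 in 35S::nahG, 3.32 in 35S::asCCD7 and 5.68 in WT.

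The other 8 of these 12 carried no description. Solyc11g043110 held rank 2, with log2 differences of 4.07 in Never ripe, 3.34 in 35S::nahG, 3.77 in 35S::asCCD7 and 3.52 in WT, and Solyc10g086100 rank 3, with 3.204 in Never ripe, 5.06 in 35S::nahG, 4.22 in 35S::asCCD7 and 4.04 in WT. Solyc08g079310 held rank 5, with 21.2, 32.2, 29.6 and 34.8 CPM in 35S::asCCD7 LTMH against 3.77, 3.47, 2.10 and 3.13 CPM in 35S::asCCD7 CT, and 19.3, 22.1 and 17.0 CPM in WT LTMH against 0.972, 1.38, 1.19 and 1.45 CPM in WT CT. Solyc04g080550 (rank 8) was uneven within LTMH, with 35.1, 27.6 and 337 CPM in Never ripe LTMH and 11.8, 16.4, 202 and 20.8 CPM in 35S::asCCD7 LTMH. Solyc06g059790, Solyc05g005865, Solyc07g007710 and Solyc11g011100 held ranks 9 to 12, with lowest differences of 2.63, 2.55, 2.52 and 2.50. Of these, Solyc05g005865 was abundant at 37.4 FPKM over all libraries, and the last 2 had under 0.4 CPM in each CT library.

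Hormone-related members came from several pathways. Counting the lists complete in the study's tables, 3 of 240 ABA response genes at that level were members, 3 auxin response genes, 1 of 85 auxin signalling genes, 1 of 21 cytokinin metabolism genes and 1 gene shared by the 24 brassinosteroid metabolism and 31 brassinosteroid response genes. None of the ABA metabolism (14), ABA signalling (79), auxin metabolism (16) or brassinosteroid signalling (41) genes was a member, and none of the 10 JAZ and COI1 genes of jasmonate signalling. The share over all genes kept was 150 of 18246.

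The ABA response members were a dehydrin, an oil body-associated protein and a peroxygenase. The dehydrin Solyc04g082200, of a family of hydrophilic proteins made during drying, was the most abundant of these at 34.9 FPKM. Solyc04g082200 had in LTMH 79.0, 74.8 and 58.1 CPM in Never ripe, 113, 51.6 and 50.2 CPM in 35S::nahG, 67.3, 73.3, 76.5 and 112 CPM in 35S::asCCD7, and 60.9, 53.6 and 64.2 CPM in WT. The CT values of Solyc04g082200 were 13.03, 17.8, 21.3 and 16.4 CPM in Never ripe, 9.02, 8.54, 9.34 and 9.71 CPM in 35S::nahG, 29.4, 23.6, 18.4 and 32.1 CPM in 35S::asCCD7, and 16.5, 15.6, 15.3 and 17.7 CPM in WT. Its LTMH and CT libraries did not overlap in any line. The peroxygenase Solyc01g005400 had 25.3, 25.1 and 23.9 CPM in 35S::nahG LTMH against 1.46, 1.68, 1.94 and 1.24 CPM in 35S::nahG CT, but 30.0, 38.9 and 56.4 CPM in Never ripe LTMH against 8.26, 25.2, 20.1 and 15.8 CPM in Never ripe CT. Solyc09g098120, the oil body-associated protein, had log2 differences of 1.40 in Never ripe, 2.51 in 35S::nahG, 1.51 in 35S::asCCD7 and 2.86 in WT.

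Cytochrome P450 90B1 (Solyc02g085360), the enzyme that in Arabidopsis carries out an early hydroxylation in brassinosteroid synthesis, was even across lines. Cytochrome P450 90B1 had in LTMH 11.7, 12.7 and 14.8 CPM in Never ripe, 15.1, 14.4 and 13.2 CPM in 35S::nahG, 12.2, 13.7, 12.4 and 15.0 CPM in 35S::asCCD7, and 12.9, 13.6 and 15.9 CPM in WT. At control temperature cytochrome P450 90B1 had 4.22, 5.90, 4.70 and 5.03 CPM in Never ripe, 6.32, 6.34, 6.64 and 6.64 CPM in 35S::nahG, 5.52, 7.14, 6.44 and 7.38 CPM in 35S::asCCD7, and 5.98, 5.79, 5.83 and 6.36 CPM in WT. All 13 LTMH libraries of this gene were above all 16 CT libraries. LOG3 (Solyc10g084150), of the family that releases active cytokinins, averaged 46.2 ± 5.55 CPM in 35S::nahG LTMH and 10.7 ± 0.871 CPM in 35S::nahG CT (SD, n = 3 and 4). The gene annotated as gibberellin 20-oxidase-2 (Solyc06g035530), an enzyme of gibberellin synthesis, averaged 8.75 ± 1.21 CPM in WT LTMH and 1.62 ± 0.432 CPM in WT CT (SD, n = 3 and 4).

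The auxin response list gave the chalcone flavanone isomerase Solyc05g010310, an enzyme of flavonoid synthesis, with 4.18, 9.25 and 212 CPM in Never ripe LTMH against 1.10, 9.82, 11.1 and 2.98 CPM in Never ripe CT. In WT it had 39.8, 66.4 and 369.6 CPM in LTMH against 1.55, 9.03, 0.696 and 11.5 CPM in CT, so libraries of the same group differed widely, and in Never ripe LTMH and CT overlapped. SAUR71-like Solyc09g008175 and the HLS1-like N-acetyltransferase Solyc02g064690, of the auxin signalling list, were low at 3.30 and 0.542 FPKM. Their log2 differences ran between 1.03 and 2.19 and between 1.82 and 2.44 over the lines.

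From the pollen list, 2 of 214 genes at that level were members. LOX3 (Solyc03g122340), a lipoxygenase, an enzyme that oxygenates fatty acids, had 67.7, 56.8 and 58.8 CPM in 35S::nahG LTMH against 14.1, 10.8, 12.0 and 15.2 CPM in 35S::nahG CT, and 37.8, 29.9 and 140.4 CPM in Never ripe LTMH against 19.7, 22.7, 19.9 and 22.1 CPM in Never ripe CT. NAS3 (Solyc01g100490), which makes the metal chelator nicotianamine, had 24.6, 23.3 and 22.6 CPM in 35S::nahG LTMH against 3.501, 2.78, 3.00 and 2.60 CPM in 35S::nahG CT. The LTMH and CT libraries of NAS3 did not overlap in any line. VIF (Solyc12g099190), an inhibitor of invertases, the enzymes that split sucrose, was the only member among 107 carbohydrate metabolism genes and had 12.8, 8.96 and 8.98 CPM in WT LTMH against 0.486, 0.339, 0.551 and 0.606 CPM in WT CT.

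The 5 members with the highest mean CPM were a catalase, Solyc05g006650, Solyc04g014510, Hsp90-3 and Solyc04g017690. Catalase (Solyc12g094620), which breaks down hydrogen peroxide, reached 202 FPKM over all libraries and lies at chr12:65780218-65785116 on the plus strand of SL3.0. The catalase had in LTMH 701, 757 and 1355 CPM in Never ripe, 1086, 1036 and 857 CPM in 35S::nahG, 711, 984, 1260.4 and 787 CPM in 35S::asCCD7, and 576, 616 and 598 CPM in WT. For the catalase, the CT libraries held 273, 246, 328 and 237 CPM in Never ripe, 154, 175, 155 and 241 CPM in 35S::nahG, 459, 510.1, 332 and 615 CPM in 35S::asCCD7, and 174, 245, 186 and 212 CPM in WT. 35S::asCCD7 had the highest CT levels of this gene and the smallest difference, 0.96 on the log2 scale. Solyc05g006650 averaged 169 FPKM, Solyc04g014510 152 FPKM and Solyc04g017690 155 FPKM. Solyc04g017690 was again 1 of the 3 with the narrowest spread of differences, at 0.99 in Never ripe, 0.97 in 35S::nahG, 1.03 in 35S::asCCD7 and 0.96 in WT, and Solyc08g078190 was the other one beside Hsp16.1-Po.

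The members with the widest spread of differences were low in 35S::nahG CT and patchy elsewhere. Solyc07g007730 had 330.0, 361 and 199.6 CPM in 35S::nahG LTMH against 0.620, 0.405, 1.73 and 0.177 CPM in 35S::nahG CT. In Never ripe it had 69.9, 80.8 and 954 CPM in LTMH against 8.06, 105, 161 and 31.4 CPM in CT. In 35S::asCCD7 it had 24.6, 50.2, 616 and 70.4 CPM in LTMH against 17.4, 23.8, 10.6 and 272 CPM in CT, and the groups overlapped in both of the last lines. Solyc03g031510 had 60.8, 155, 366 and 119 CPM in 35S::asCCD7 LTMH against 49.5, 64.3, 32.8 and 252 CPM in 35S::asCCD7 CT. Solyc02g087500 ran the other way between libraries, with 172, 281 and 9.78 CPM in Never ripe LTMH and 30.4, 18.8, 2.41 and 23.0 CPM in 35S::asCCD7 LTMH against 12.9, 12.4, 4.13 and 2.55 CPM in 35S::asCCD7 CT.

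In Never ripe LTMH, 35S::asCCD7 LTMH, WT LTMH and 35S::asCCD7 CT, Solyc07g007730 and Solyc03g031510 were both highest in the library with the lowest tapetum sum of its group. In 35S::nahG LTMH and 35S::nahG CT this held for Solyc03g031510 alone, and in Never ripe CT and WT CT for neither gene. The library with the lowest tapetum sum was looked at in each of the 8 groups, a choice made after the values were seen. Never ripe LTMH replicate 4 (61.8 CPM) was the highest of its 3 libraries for 97 of the 150 members and the lowest for 38, against 53.0% and 27.3% of the genes kept. 35S::nahG LTMH replicate 2 (155 CPM) was the highest of 3 for 80 members and the lowest for 23, against 53.1% and 20.2%. 35S::asCCD7 LTMH replicate 3 (111 CPM) was the highest of 4 for 69 members and the lowest for 43, against 34.4% and 23.9%. WT LTMH replicate 4 (158 CPM) was the highest of 3 for 91 members and the lowest for 29, against 35.5% and 32.2%.

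In CT, Never ripe replicate 2 (435 CPM) was the highest of 4 for 70 members and the lowest for 15, against 33.6% and 17.4% of the genes kept. 35S::nahG replicate 2 (7337 CPM) was the highest for 36 and the lowest for 32, against 36.2% and 23.7%. 35S::asCCD7 replicate 4 (71.5 CPM) was the highest for 100 and the lowest for 14, against 48.8% and 19.6%, and WT replicate 2 (703 CPM) the highest for 53 and the lowest for 25, against 32.7% and 26.1%. In 6 of the 8 groups this library also had the highest share of reads in the members. The exceptions were Never ripe CT, where replicate 3 had 0.218% and replicate 2 had 0.201%, and 35S::nahG CT, where replicate 4 had 0.0968% and replicate 2 had 0.0901%.

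**Figure D4:**
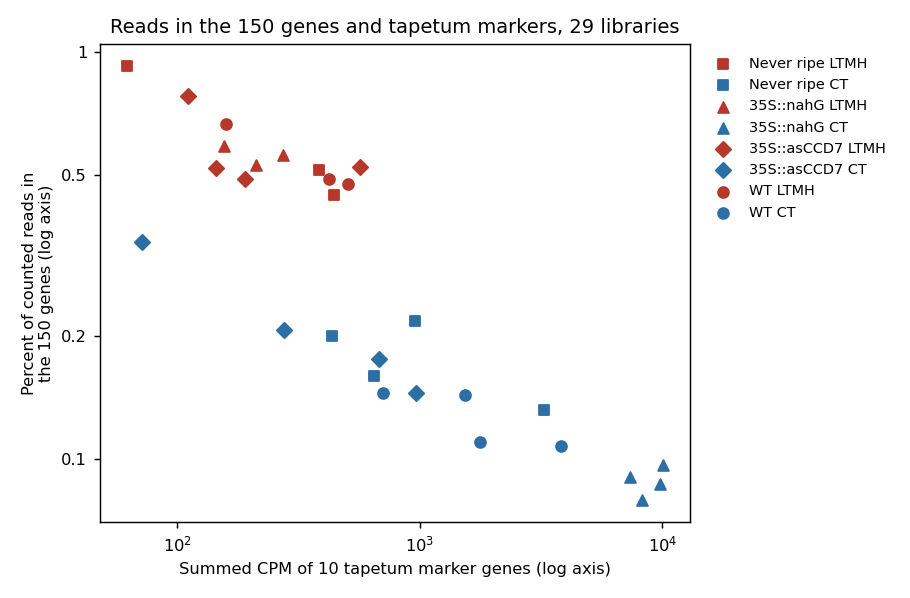
Percent of counted reads in the 150 genes against the summed CPM of 10 tapetum marker genes, both on log axes, 1 point per library. Over all tapetum sums, LTMH libraries span 0.444% to 0.926% and CT libraries 0.0790% to 0.341%, a contrast that the rule used. Sums reach 10030 CPM in 35S::nahG CT and at most 568 CPM in LTMH, so not all libraries have a counterpart. In 6 of 8 groups the library with the lowest sum has the highest percent, Never ripe CT and 35S::nahG CT being the exceptions.

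Comparisons between lines at 1 temperature were not used to choose the members, though the same libraries were, and all 3 lines were set against the same WT libraries. In LTMH all 150 members passed the filter on low counts. Against WT LTMH, 35S::nahG had 37 members called lower and 13 higher, which is 24.7% and 8.67% of the 150, where 4.78% and 4.69% of all 20300 genes tested were called. Never ripe had 6 lower and 7 higher, 4.00% and 4.67% of the members, where 2.10% and 2.64% of all genes tested were called. 35S::asCCD7 had 5 lower and 12 higher, 3.33% and 8% of the members, where 1.92% and 3.91% of all genes tested were called. The medians of the members' log2 differences from WT were 0.03 in Never ripe, -0.03 in 35S::nahG and 0.11 in 35S::asCCD7, and those of the genes kept 0.04, 0.06 and 0.08. The tapetum sums were 155 to 273 CPM in 35S::nahG LTMH and 158 to 506 CPM in WT LTMH.

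The largest called difference in LTMH was that of Solyc09g015770, a WRKY transcription factor (chr9:10988362-10990402, minus strand, SL3.0). Solyc09g015770 had in LTMH 34.7, 25.3 and 24.7 CPM in Never ripe, 2.62, 3.74 and 3.24 CPM in 35S::nahG, 30.0, 39.3, 25.2 and 36.8 CPM in 35S::asCCD7, and 29.9, 32.1 and 34.6 CPM in WT. In CT Solyc09g015770 had 8.38, 11.2, 8.42 and 11.2 CPM in Never ripe, 0.682, 1.22, 1.15 and 1.48 CPM in 35S::nahG, 7.39, 7.16, 6.73 and 9.93 CPM in 35S::asCCD7, and 11.5, 11.6, 14.6 and 15.0 CPM in WT. Its 35S::nahG libraries lay far below those of the other 3 lines at both temperatures, while LTMH stood above CT within 35S::nahG as well. The log2 fold change of 35S::nahG LTMH against WT LTMH was -3.39 (SE 0.13, adjusted p = 1.64e-05, edgeR). WRKY factors take part in defence and in responses to salicylic acid in many plants. By identifier, Solyc09g015000 and Solyc09g015020 lie near this gene, and the study lists both as lower in 35S::nahG at both temperatures. The part of salicylate loss or of position on the chromosome in the level of Solyc09g015770 was not tested.

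Next came Solyc06g053657, annotated only by a reverse transcriptase domain of the RVT_2 type, which is found in retrotransposons. It had 1.18, 0.783 and 2.15 CPM in 35S::nahG LTMH and 16.2, 10.6 and 9.91 CPM in WT LTMH, a log2 fold change of -3.22 (SE 0.37, adjusted p = 0.0012, edgeR). Solyc04g071523, annotated as a UPF0496 protein, was lower than WT in LTMH in all 3 lines. Solyc04g071523 had in LTMH 3.75, 3.90 and 9.996 CPM in Never ripe, 3.13, 5.83 and 2.77 CPM in 35S::nahG, 2.22, 1.68, 6.67 and 2.02 CPM in 35S::asCCD7, and 19.5, 16.9 and 29.04 CPM in WT. Its log2 fold change was -1.95 (SE 0.41, adjusted p = 0.0317, edgeR) in Never ripe. In 35S::nahG it was -2.54 (SE 0.31, adjusted p = 0.00166, edgeR), and in 35S::asCCD7 -2.89 (SE 0.45, adjusted p = 0.0106, edgeR).

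Other named members were also called lower in 35S::nahG LTMH. The succinate dehydrogenase subunit Solyc04g055030 had a log2 fold change of -1.47, VIF -2.26, the SAG39-type protease Solyc02g076910 -1.99, Dicer-like 3 (Solyc05g041920), of small RNA synthesis, -1.22, the gibberellin 20-oxidase Solyc06g035530 -0.97 and the NAC gene Solyc02g077610 -1.16. BIP3 was called lower at -0.76, with 81.3 ± 26.4 CPM in 35S::nahG LTMH and 131 ± 23.0 CPM in WT LTMH (SD, n = 3 each), and it was the only HSR member called lower there. The 3 highest calls in 35S::nahG LTMH were DnaJ-C (log2 fold change 1.82), Solyc03g005210 (1.76) and Solyc02g086630 (1.42). The catalase at 0.67 and the nitrate or peptide transporter Solyc07g008520 at 1.13 were higher too.

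In Never ripe LTMH the highest calls were DnaJ-C (log2 fold change 2.35, SE 0.36), Solyc10g076640 (1.29, SE 0.30) and Solyc04g006960 (1.14, SE 0.18). The lowest beside Solyc04g071523 were Solyc08g079430 (-1.85, SE 0.13) and VIF (-1.64, SE 0.25). In 35S::asCCD7 LTMH the highest were DnaJ-C (2.91, SE 0.41), Solyc01g095320 (1.77, SE 0.31) and Solyc03g044850 (1.44, SE 0.28), and the lowest beside Solyc04g071523 were Solyc08g079430 (-1.64, SE 0.08) and Solyc03g031770 (-1.20, SE 0.24). Solyc08g079430 had 18.8, 25.4 and 26.9 CPM in Never ripe LTMH, 30.6, 26.5, 29.5 and 25.5 CPM in 35S::asCCD7 LTMH and 82.2, 79.9 and 86.2 CPM in WT LTMH, so WT stood apart from both. It was called lower in 35S::nahG LTMH too, at -1.59 (SE 0.23). Many of these calls depended on single libraries. In Never ripe LTMH, Solyc10g076640, Solyc04g006960 and Solyc04g071523 were not called when any 1 of the 3 WT LTMH libraries was left out, DnaJ-C without WT LTMH replicate 2 or 3, and VIF without replicate 3. Their adjusted p reached 0.246, 0.108, 0.102, 0.0625 and 0.0740 over the settings (edgeR and DESeq2), and all 5 calls were lost with a replicate block. Solyc10g076640 and Solyc04g071523 were also lost without Never ripe LTMH replicate 1, and Solyc04g071523 without Never ripe LTMH replicate 3. In 35S::asCCD7 LTMH, Solyc01g095320, Solyc03g044850 and Solyc03g031770 were not called when any 1 of the 3 WT LTMH libraries was left out, and Solyc03g031770 also without 35S::asCCD7 LTMH replicate 2. DnaJ-C in 35S::nahG LTMH was lost without WT LTMH replicate 2 or 3. The calls of Solyc08g079430 in Never ripe and 35S::asCCD7 LTMH were kept in each setting tried.

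The small counts in Never ripe and 35S::asCCD7 rest on few libraries. Never ripe had 7 higher and 6 lower with all libraries, 1 and 2 when WT LTMH replicate 2 was left out, 0 and 1 when it was replicate 3 of WT LTMH, and 4 and 2 when it was replicate 4. It had 4 higher without Never ripe LTMH replicate 1, 3 lower without Never ripe LTMH replicate 3, and 12 and 18 without Never ripe LTMH replicate 4. Beside the 0 from edgeR, 12 members had an unadjusted p under 0.05 and a fold of 1.5. 35S::asCCD7 had 12 higher and 5 lower with all libraries, 1 and 2 when WT LTMH replicate 2 was left out, 1 and 3 when it was replicate 3 of WT LTMH, and 7 and 2 when it was replicate 4. It had 8 lower without 35S::asCCD7 LTMH replicate 1, 3 without replicate 2, 21 without replicate 3, and 7 higher without replicate 4. In 35S::nahG the 13 higher became 22 without WT LTMH replicate 4, and the 37 lower fell to 17 when all 8 groups shared 1 estimate of the spread.

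**Figure D5:**
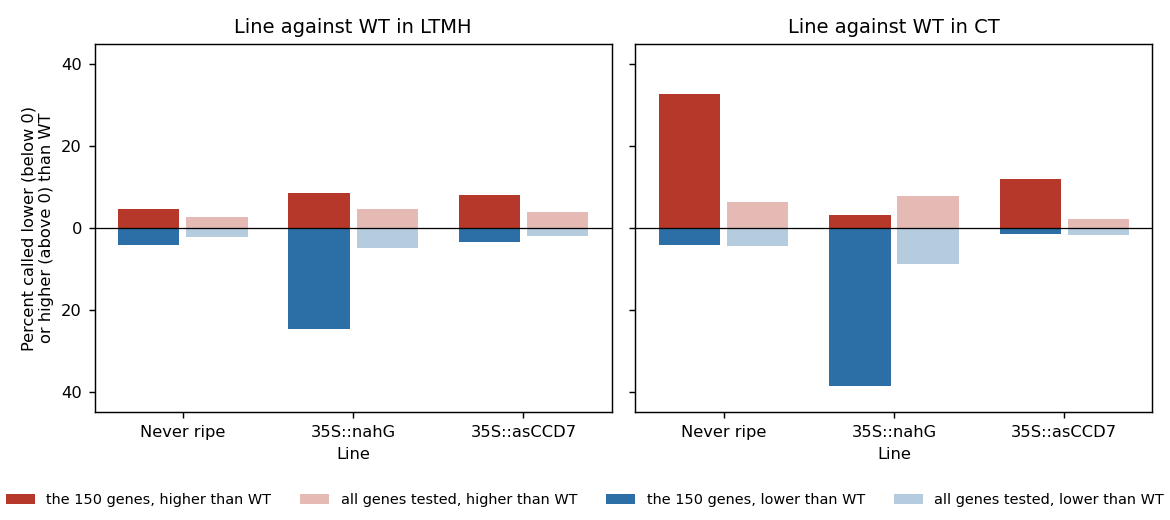
Percent of the 150 genes (full colour) and of all genes tested (pale) called higher (above 0) or lower (below 0) than WT in each line, in LTMH (left) and CT (right). In 35S::nahG 24.7% of the members in LTMH and 38.7% in CT were called lower than WT, and in Never ripe CT 32.7% were called higher. Member percents are of all 150, though in CT only 138 in Never ripe, 121 in 35S::nahG and 137 in 35S::asCCD7 were tested. Some of these passed the filter only through the line where they were higher. No replicate block was used for the bars.

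In CT more members were called than in LTMH, with 4 WT libraries against 3. Against WT CT, 35S::nahG had 58 members called lower and 5 higher, 38.7% and 3.33% of the 150, where 8.66% and 7.88% of all 20081 genes tested were called. Never ripe had 49 called higher and 6 lower, 32.7% and 4.00% of the 150, where 6.29% and 4.32% of all genes tested were called. 35S::asCCD7 had 18 called higher and 2 lower, 12.0% and 1.33% of the 150, where 2.33% and 1.61% of all genes tested were called. The filter passed 121 members in 35S::nahG, 138 in Never ripe and 137 in 35S::asCCD7, and a member that passed only through the line where it was higher had to differ. Without the filter the members called lower in 35S::nahG numbered 65 of 149, where 7.15% of all genes tested were lower. Those called higher were then 50 of 150 in Never ripe and 14 of 150 in 35S::asCCD7, where 4.97% and 1.79% of all genes tested were higher.

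Over all 150 members the median log2 difference from WT CT was 0.40 in Never ripe, -0.41 in 35S::nahG and 0.45 in 35S::asCCD7, beside -0.08, 0.04 and 0.06 over the genes kept. The mean was above WT for 118, 33 and 129 of the 150 members in the same order of lines, and for 36.2%, 54.9% and 61.3% of the genes kept. The tapetum sums moved with these counts, at 435 to 3236 CPM in Never ripe CT, 7337 to 10030 CPM in 35S::nahG CT, 71.5 to 960 CPM in 35S::asCCD7 CT and 703 to 3818 CPM in WT CT, and their part in the counts was not tested. Of the 37 members lower in 35S::nahG LTMH and the 58 lower in 35S::nahG CT, 21 were in both lists, which is 56.8% of the LTMH list and 36.2% of the CT list. The like overlap over all genes tested was not counted, and some of the CT list passed the filter only through WT. Nothing is therefore read from the overlap.

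In 35S::nahG CT, the dehydrin Solyc04g082200 was called lower at -0.87 and Hsp70-5 at -1.49. Solyc07g007730, the chalcone flavanone isomerase Solyc05g010310 and SlSWEET11a passed the filter on low counts through WT, so their calls are not read as results. Solyc07g007730 had 20, 14, 59 and 6 reads in 35S::nahG CT and 179, 1351, 137 and 1396 reads in WT CT. Solyc05g010310 had 0, 6, 10 and 0 reads in 35S::nahG CT and 51, 320, 24 and 381 reads in WT CT, and SlSWEET11a 4, 3, 5 and 7 reads in 35S::nahG CT and 11, 35, 18 and 22 reads in WT CT. DnaJ-C (log2 fold change 2.49) and Solyc08g079310 (1.28) were the highest. Solyc08g079310 had 2.66, 3.39, 2.94 and 3.51 CPM in 35S::nahG CT and 0.972, 1.38, 1.19 and 1.45 CPM in WT CT, with no overlap.

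In Never ripe CT the largest call was Solyc02g087500 at 3.90 (SE 0.52, adjusted p = 0.000652, edgeR). The SAG39-type protease Solyc02g076910 passed the filter on low counts through Never ripe, so its call is not read as a result. Solyc02g076910 had 134, 346, 233 and 306 reads in Never ripe CT and 14, 34, 1 and 25 reads in WT CT. Solyc02g087500 had 22.7, 7.93, 20.9 and 9.93 CPM in Never ripe CT and 0.881, 0.706, 2.29 and 0.424 CPM in WT CT. The peroxygenase Solyc01g005400 at 2.27 and NAS3 at 1.67 were higher as well. The lowest were Hsp70-5 at -1.93 (SE 0.39, adjusted p = 0.00589, edgeR) and Solyc08g079420 at -1.79 (SE 0.19, adjusted p = 0.000162, edgeR). The 49 higher became 31 without Never ripe CT replicate 2, and the 6 lower became 3 without WT CT replicate 4.

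In 35S::asCCD7 CT the highest calls were DnaJ-C (log2 fold change 3.17, SE 0.29) and Solyc02g087500 (2.84, SE 0.68). The call of Solyc02g087500 was lost without WT CT replicate 1, 2 or 4 and without 35S::asCCD7 CT replicate 1 or 2 (adjusted p up to 0.109, edgeR). The 2 lower ones were Solyc08g079430 (-1.08, SE 0.19) and the WRKY gene Solyc09g015770 (-0.82, SE 0.14). The catalase at 1.17, NAS3 at 1.497, LOG3 at 0.70 and the dehydrin Solyc04g082200 at 0.61 were higher. Here libraries with the same replicate number deviated together, and with the replicate number as a block 33 members were called higher and 2 lower, where 2.71% and 2.48% of all genes tested were called. DESeq2 called 40 higher, and the fit of all 8 groups 36. Without 1 library the 18 higher became 6 (WT CT replicate 1), 12 (WT CT replicate 2), 9 (WT CT replicate 3), 11 (WT CT replicate 4), 9 (35S::asCCD7 CT replicate 1), 6 (replicate 2), 26 (replicate 3) or 10 (replicate 4).

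Among the chaperone members, Hsp90-3, Hsp70-1 and Hsp16.1-Po were not called in any of the 6 comparisons with WT, which does not show that they were alike. Hsp16.1-Po had 17.6 to 21.4 CPM in 35S::asCCD7 LTMH and 13.3 to 15.9 CPM in WT LTMH, and 7.57 to 9.87 CPM in 35S::asCCD7 CT and 5.22 to 6.96 CPM in WT CT, with no overlap at either temperature. Hsp70-5 was called lower in 2, BIP3 lower in 1, and DnaJ-C higher in all 6, with the losses in LTMH given above. For DnaJ-C the group means were 3.59 ± 0.527 CPM in Never ripe CT, 3.89 ± 2.09 CPM in 35S::nahG CT, 6.37 ± 2.33 CPM in 35S::asCCD7 CT and 0.673 ± 0.197 CPM in WT CT (SD, n = 4 each).

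The members were spread over the 12 chromosomes, with 6 to 20 on each, between 0.496% and 1.14% of the genes kept there. Some lay side by side. Counting along the listed genes, 19 members had another member within 5 genes, in 11 pairs, of which 8 were next neighbours. Solyc11g043110 and Solyc11g043115 were next to each other and held ranks 2 and 25. Solyc08g079420, Solyc08g079430 and Solyc08g079440 formed a run of 3. In that run Solyc08g079430 was called lower than WT in all 6 comparisons, while Solyc08g079440 averaged 14.2 ± 0.834 CPM in Never ripe LTMH, 14.6 ± 0.717 CPM in 35S::asCCD7 LTMH and 11.5 ± 0.725 CPM in WT LTMH (SD, n = 3, 4 and 3). Reads shared between like neighbours could not be told apart from these counts, so members of such pairs may not be independent.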

How the data were processed

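Polyadenylated RNA of anthers was sequenced in 29 libraries, and the authors aligned the read pairs with HISAT2 2.0.5 to the tomato genome SL3.0 and deposited whole read counts per gene from featureCounts 1.5.0-p3. The authors also deposited FPKM values, used here to compare levels between genes. Their library scale differed from the column totals by a factor of 0.911 to 1.15, so FPKM is not compared between libraries. Of the 35092 genes, 1167 had no Solyc identifier and none of these became a member. All columns were used.

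The members and gene lists were chosen with earlier results of these data known. The lists (heat shock response, pollen, carbohydrate and hormone sets) came from the study's tables, and gene names also from the study's annotations. Named genes were the 12 top members, members on a list, the 5 most abundant, the extremes of each line against WT, the genes at the limit, 8 heat factors and the extremes among other HSR genes, and the widest and narrowest spreads. Members with a well-studied name were added.

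Lines were compared with WT at 1 temperature by edgeR 4.0.16 (R 4.3.3), each pair of groups alone, with TMM, filterByExpr at a minimum count of 10, the two-sided quasi-likelihood test and Benjamini-Hochberg adjustment over all genes tested. The procedure was tested on simulated data. DESeq2 1.42.0 and other normalizations, filters and fits were alternatives. Tables and plots used Python 3.11.15, pandas 2.3.3, numpy 2.4.6 and matplotlib 3.10.9. In 35S::asCCD7 CT and WT CT, libraries of the same replicate number deviated together from their group means (correlations of 0.141 to 0.476 over 4 pairs), so the numbers were taken to pair them, from the data and not from a stated batch. No 2 libraries of a group held identical values. Each library had 32273189 to 42353956 counted reads.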

Additional observations from a re-analysis of the deposited data

Results flagged for a closer look

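In groups of 4 libraries, 175 sets of values (32 genes and the library scores) were examined, and 11 held a library far from the others, where chance gives about 1 in 20. 35S::asCCD7 CT replicate 4 was the highest for Solyc11g043110 at 4.85 CPM, for Solyc04g080550 at 11.8 CPM, for Hsp16.1-Po (Solyc04g014480) at 9.87 CPM and for the chalcone flavanone isomerase Solyc05g010310 at 15.9 CPM. 35S::asCCD7 LTMH replicate 3 was the highest for Solyc04g080550 at 202 CPM, for Solyc05g010310 at 155 CPM and for the share of reads in the members at 0.781%. These 2 libraries had the lowest tapetum sums of their groups, and the part of that in the values was not tested. SlSWEET11a (Solyc03g097870) was lowest in Never ripe CT replicate 1 at 0.722 CPM. Near the detection limit, Solyc07g007710 stood at 0.0620 CPM in 35S::nahG CT replicate 1, and Solyc11g011100 at 0.0587 CPM in 35S::nahG CT replicate 3 and 0.113 CPM in WT CT replicate 2.

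For 3 members 35S::nahG was called higher than WT in LTMH and lower in CT, with no overlap of libraries at either temperature. Members without both calls were not looked at, and the like count over all genes was not made, so nothing is read from the number. On the log2 scale 35S::nahG differed from WT by 0.77 in LTMH and -0.70 in CT for Solyc12g036325, 0.66 in LTMH and -1.15 in CT for Solyc05g008050, and 1.04 in LTMH and -1.35 in CT for Solyc04g006960. In CT Solyc04g006960 passed the filter on low counts through WT, with 26, 9, 12 and 35 reads in 35S::nahG CT. The difference between temperatures was not tested, since it is built from the values that chose the members.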

How the results depend on the processing

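Membership changed with the settings. Of the 150 members, 86 were chosen again with a limit of 5 CPM, and 118 to 144 with other pseudocounts, TMM or RLE scaling, no limit, medians or FPKM (144 with TMM, 142 with no limit, 139 with FPKM). Leaving out 1 library in turn kept 125 to 149. In a setting added after the data were seen, the lowest difference over 3 lines kept 93 members without Never ripe, 110 without 35S::asCCD7, 126 without WT and 133 without 35S::nahG.

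In LTMH against WT, Never ripe had 17 members higher by DESeq2, and 0 higher (18 at an unadjusted p under 0.05 and a fold of 1.5) and 2 lower with a replicate block. 35S::nahG had 20 higher without the fold limit and 17 lower when all 8 groups were fitted together. 35S::asCCD7 had 12 lower by DESeq2 and 8 in the fit of all 8 groups. In CT, 35S::nahG had 8 higher without the fold limit, and 35S::asCCD7 had 40 higher by DESeq2, 33 with the replicate block and 36 in the fit of all 8 groups. The HSR counts include 5 or 6 members that the same contrast chose, from which nothing is read. Of these genes, WT had 57 higher and 28 lower without the fold limit, and 35S::nahG 57 and 29. Never ripe had 13 lower without it, and 11 higher and 1 lower with the block. 35S::asCCD7 had 34 higher and 8 lower without it, 12 higher and 0 lower (4 at an unadjusted p under 0.05 and a fold of 1.5) with the block, 5 lower by DESeq2 and 5 in the fit of all 8 groups.

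Leaving out 1 library in turn gave 0 to 12 higher and 1 to 18 lower for Never ripe in LTMH, 9 to 22 and 29 to 39 for 35S::nahG, and 1 to 14 and 2 to 21 for 35S::asCCD7. In CT it gave 31 to 59 higher and 3 to 6 lower for Never ripe, 4 to 7 and 44 to 58 for 35S::nahG, and 6 to 26 and 2 to 2 for 35S::asCCD7. For HSR genes it gave 18 to 27 higher and 1 to 2 lower in Never ripe, 29 to 37 and 12 to 13 in 35S::nahG, 15 to 25 and 1 to 5 in 35S::asCCD7, and 20 to 27 and 6 to 10 in WT. Causes of these shifts were not tested. For single genes, 1022 alternatives left the gene called or not called as before, 92 lost a call and 18 gained one. No change of sign involved a call. Some fold changes that were not called did change sign, as for Solyc02g062160 in 35S::asCCD7 (-1.11 to 0.561). Outside 35S::asCCD7 CT the replicate numbers were not taken to pair libraries, with correlations of -0.326 to 0.508. Some of these were as high as in 35S::asCCD7 CT. The 2 numbers shared by Never ripe LTMH and WT LTMH had 0.158 and 0.508, and 3 of the 4 shared by 35S::nahG CT and WT CT were over 0.1. A pairing there is thus not excluded. The planned search of promoter motifs was not run.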
